A study of Mus musculus with 18 samples.

Results

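The 10 genes of the BCL-2 family described here were followed in mouse Th17 cells that lacked either a glucose transporter or an enzyme of acetyl-CoA synthesis. They are the rows of the deposited expression table whose gene symbol is Bcl2, Bcl2l1, Mcl1, Bcl2l11, Bbc3, Pmaip1, Bax, Bak1, Bad or Bid, 10 of 45703 genes in all. The study cultured naive CD4+ T cells under Th17 polarizing conditions for 48 h, left them without or with acetate for another 24 h, restimulated them for 5 h with PMA and ionomycin while brefeldin A and monensin blocked secretion, and sequenced their messenger RNA. The groups were WT (wild type), GLUT3KO (Slc2a3-fl/fl Cd4-cre, which lacks the glucose transporter GLUT3 in T cells) and ACLYKO (Acly-fl/fl Cd4-cre, which lacks ATP-citrate lyase in T cells), each without and with acetate, with 3 libraries in each of the 6 groups. The 2 statements of the acetate dose differ, at 20 mM for the samples and 10 mM for the series. Cd4-cre deletes a floxed gene in developing T cells, so the genes had been lost before the cultures began. The labels name no Cre for WT, give neither age nor sex, and do not give how many mice a group stands for. The spread behind each p-value is that among libraries of the same group, pooled over all 6 groups, and may be technical. Of the 18 libraries 12 are labelled C57BL/6 and the other 6 (replicate 3 of GLUT3KO with acetate and 5 ACLYKO libraries) carry running background numbers from C57BL/7 to C57BL/12.

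The BCL-2 family decides at the outer membrane of mitochondria whether a cell dies by apoptosis. Survival proteins (BCL-2, BCL-XL, MCL-1) hold the effectors BAX and BAK in check, and BH3-only proteins, such as BIM, PUMA, NOXA, BAD and BID, are made or activated under stress and block the survival proteins or activate the effectors, which then open the membrane and release cytochrome c. In T cells this balance sets how many cells outlive an immune response: cytokines such as IL-2 and IL-7 sustain BCL-2 and MCL-1, and BIM, which Bcl2l11 encodes, removes activated T cells once those signals end.

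Values are TPM (reads scaled to the exon length of the gene and to the total of the library), so they can be compared between genes. They are shares of a library, so a difference between libraries is relative to the other genes in it. A gene was called changed in a comparison when limma, fitted on log2(TPM + 1) of all 14229 genes that passed a filter on low values, gave an adjusted p under 0.05. All 10 genes passed that filter. Fold changes are given as log2 differences on that scale with their standard error (SE), which understates the change of genes near 1 TPM.

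Depth was 18.7 to 30.1 M reads per library. The targeted genes checked the labels: Acly was at 396 ± 4.27 TPM (SD, n = 3) in WT and 11.3 ± 3.85 in ACLYKO, and Slc2a3 was at 17.7 ± 2.91 in WT and 6.17 ± 2.10 in GLUT3KO. The library that stood furthest apart was ACLYKO replicate 1. It had a score of 90.2 on the first axis of the differences between libraries of a group, against -53.5 to 35.6 for the others, and results that rest on it are given with and without it. Replicate 1 was also the highest of its group in WT (35.6), GLUT3KO (31.9) and ACLYKO with acetate (29.5). Leaving out ACLYKO replicate 1 alone keeps those libraries, so the groups are then unbalanced on this axis. The summed level of 6 T cell marker genes was 1246 to 3289 TPM over all libraries, and that of 6 Th17 marker genes was 1380 to 1585 in WT, 334 to 408 in GLUT3KO and 395 to 518 in ACLYKO. Of the lists for other blood cells, that of B cells summed to at most 9.77 TPM, that of myeloid cells to at most 3.47, that of neutrophils to at most 3.71, that of erythroid cells to at most 11.8 and that of NK cells to at most 11.3. The CD8 list summed to at most 19.9 TPM, with 1 of 2 genes under a mean of 1. Several lists moved with the genotype. Without acetate the sums in WT and GLUT3KO did not overlap for NK cells (0.276 to 0.469 and 1.6 to 3.87 TPM, 3 of 4 genes under a mean of 1), myeloid cells (0.476 to 0.601 and 0.807 to 2.22, 7 of 7 under 1), B cells (2.61 to 3.49 and 1.49 to 1.57, 4 of 6 under 1), T cells (2249 to 2416 and 2926 to 3289) or the Th17 list. With acetate the Th17 list summed to 3128 to 4139 in WT, 2257 to 2620 in GLUT3KO and 1083 to 1307 in ACLYKO. The part of these lists in the results was not tested. In such bulk samples fewer cells of a type and less RNA per cell cannot be told apart.

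The promoters of 2 of the genes hold the core binding motif of FOXO factors, transcription factors that growth factor signalling keeps out of the nucleus and that are known to act on Bcl2l11 and Bbc3. They are shown because they hold a match, and Bcl2l11 had the widest range of all 10 genes. The action of FOXO factors on these 2 genes was known beforehand, so the matches are no result of these data. Whether FOXO factors had a part in the levels found here was not tested. The motif GTAAACA was searched on both strands (TGTTTAC on the other) in the 300 bases from 250 before to 50 after each annotated start, in RefSeq sequence of build GRCm38.p6. It was found in 2 of 15 windows of 9 of the genes and in 3.65% of all 32851 windows. Pmaip1 is named only. The Bcl2l11 window lies at chr2:128125788-128126087 on the plus strand, with the match in capitals 227 bases before the start, and the Bbc3 window at chr7:16310011-16310310 on the plus strand, with the match in capitals 167 bases before the start.
Bcl2l11: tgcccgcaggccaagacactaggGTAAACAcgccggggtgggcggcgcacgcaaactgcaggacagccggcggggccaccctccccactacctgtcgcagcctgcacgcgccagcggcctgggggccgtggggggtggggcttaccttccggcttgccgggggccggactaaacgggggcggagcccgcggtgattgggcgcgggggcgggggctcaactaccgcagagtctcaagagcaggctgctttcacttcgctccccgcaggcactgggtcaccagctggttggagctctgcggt
Bbc3: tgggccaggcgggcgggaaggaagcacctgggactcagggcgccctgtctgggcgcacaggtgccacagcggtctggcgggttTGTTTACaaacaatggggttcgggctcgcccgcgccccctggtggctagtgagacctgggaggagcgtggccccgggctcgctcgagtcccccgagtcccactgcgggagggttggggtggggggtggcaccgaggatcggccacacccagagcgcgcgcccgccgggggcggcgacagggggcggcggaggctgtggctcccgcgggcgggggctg
A match is a run of letters and not a measured binding site, and no binding was measured in this study.

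Loss of GLUT3 changed 6 of the 10 genes without acetate, 5 upward (Bcl2l11, Pmaip1, Bcl2, Mcl1 and Bak1) and Bid downward. Of all genes tested 33.4% were called in this comparison, 74.6% of those upward, and the median log2 difference of all genes was 0.17, against 0.49 for the 10 genes. Scaling the TPM of the libraries by their median ratio brought the median of all genes to -0.01 and the upward share of calls to 54.9%. Of the 10 genes 3 were then higher and 2 lower. Loss of ACLY without acetate changed 3 of the 10, all downward (Bbc3, Bak1 and Bid), where 19.1% of all genes were called. A fit of the WT and ACLYKO libraries without acetate alone called 0 of the 10 (adjusted p 0.293, 0.265 and 0.190 for those 3). With acetate, GLUT3KO differed from WT in 5 of the 10 (30.4% of all genes) and ACLYKO in 2 of the 10 (13.5%). The levels of the 10 genes in each library are plotted by group.

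**Figure D1:**
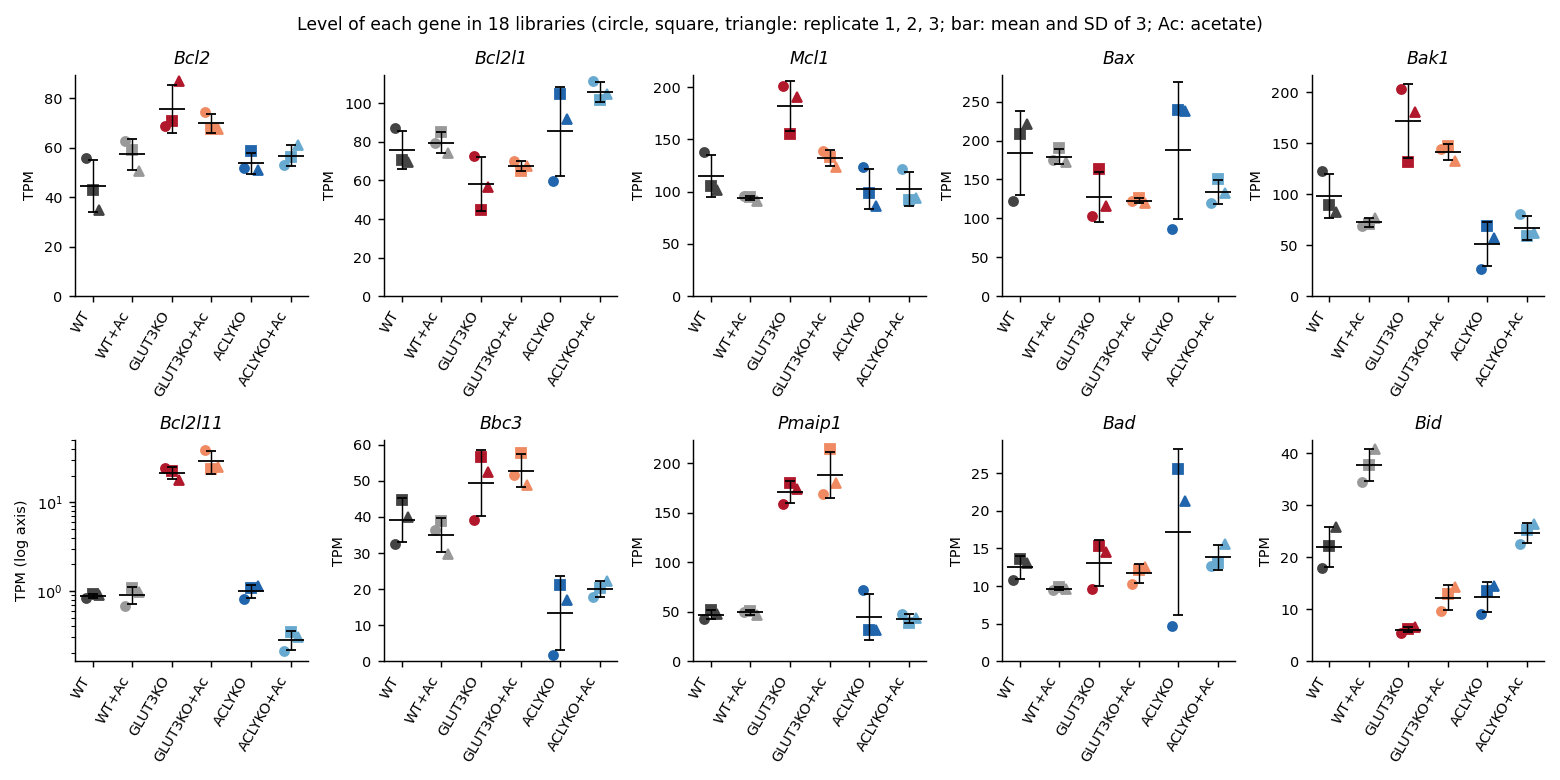
TPM of the 10 genes (vertical axes, with a log axis for Bcl2l11 only) in 6 groups of 3 libraries (horizontal axes); circles, squares and triangles are replicates 1, 2 and 3, and bars are the mean and SD. Bcl2l11 and Pmaip1 are higher in all 6 GLUT3KO libraries than in the other 12, and the circle of ACLYKO without acetate lies far from its group in Bbc3, Bax, Bad and Pmaip1.

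Bcl2l11 encodes BIM, a BH3-only protein that binds all survival proteins and is needed for the death of T cells deprived of cytokine. It lies on chromosome 2 (GRCm38.p6, 128126038 to 128162547, plus strand). Its level was 0.825, 0.915 and 0.900 TPM in the 3 WT libraries and 24.2, 22.7 and 17.8 in GLUT3KO. With acetate it was 0.681, 1.08 and 0.970 in WT and 38.9, 24.0 and 24.9 in GLUT3KO. All 6 GLUT3KO libraries were far above all WT libraries, and the ranges did not come near each other. The mean rose 24.5-fold without acetate (log2 difference 3.57 ± 0.17 SE, limma adjusted p 1.73e-09) and 32.1-fold with acetate (3.96 ± 0.17, 9.22e-10). The reads behind these values were 74 to 142 per WT library and 1386 to 2853 per GLUT3KO library without acetate, and 81 to 159 and 2484 to 5268 with it. The overlapping gene Acoxl, read from the same strand, had a mean of 0.0437 TPM in WT and 1.06 in GLUT3KO and reached 1.73 in any library, so reads of the 2 genes may be shared.

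In ACLYKO the BIM gene stayed at the WT level without acetate and was lower with it. The 3 libraries without acetate had 0.816, 1.08 and 1.14 TPM, within reach of WT (log2 difference 0.09 ± 0.17, adjusted p 0.739). With acetate they had 0.209, 0.343 and 0.300 TPM, from 24, 52 and 29 reads. Those 3 values were the lowest of all 18 libraries. Acetate lowered Bcl2l11 in ACLYKO by a log2 difference of -0.64 ± 0.17 (adjusted p 0.0177, and 0.0130 without ACLYKO replicate 1), and with acetate ACLYKO was below WT by -0.57 ± 0.17 (0.0406). Both calls are close to the limit: the first was lost without replicate 1 (0.0560) or 3 (0.0516) of ACLYKO with acetate, and the second on leaving out any 1 of the 6 libraries compared, at up to 0.160. A fit of the 2 ACLYKO groups alone gave 0.0597 for the first. The groups run from 29.2 ± 8.37 TPM (SD, n = 3) in GLUT3KO with acetate and 21.6 ± 3.36 in GLUT3KO, which overlapped, through 1.01 ± 0.171 in ACLYKO, 0.910 ± 0.205 in WT with acetate and 0.880 ± 0.0485 in WT, which overlapped, to 0.284 ± 0.0683 in ACLYKO with acetate.

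Pmaip1 encodes NOXA, a BH3-only protein that binds MCL-1 and speeds its breakdown. It had 42.6, 51.7 and 47.4 TPM in WT and 159, 180 and 174 in GLUT3KO. With acetate the values were 50.2, 51.1 and 46.9 in WT and 169, 214 and 180 in GLUT3KO. The lowest GLUT3KO library was thus above every WT library, without and with acetate. The rise was 3.62-fold without acetate (log2 difference 1.84 ± 0.24, adjusted p 3.18e-05) and 3.80-fold with it (1.90 ± 0.24, 2.56e-05). In ACLYKO the 3 libraries had 71.9, 31.5 and 31.6 TPM, of which replicate 1 was above all WT libraries and the others below. Over all 3 no difference was called (-0.18 ± 0.24, 0.639), and without replicate 1 Pmaip1 was lower (-0.56 ± 0.12, 0.00351).

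Bbc3 encodes PUMA, a BH3-only protein induced by p53 and by FOXO3 that binds all survival proteins. The WT libraries had 32.6, 44.7 and 40.0 TPM and those of GLUT3KO 39.1, 56.6 and 52.3, so that the 2 groups overlapped and no change was called (log2 difference 0.32 ± 0.53, adjusted p 0.671). The ACLYKO libraries had 1.77, 21.3 and 17.0. All 3 were below WT, and replicate 1 was the lowest of all 18 libraries. The fall was -1.94 ± 0.53 (0.0179) with that library and -0.99 ± 0.18 (0.00116) without it, and the call was lost without WT replicate 2 (0.0659) or 3 (0.0563). With acetate the values were 36.3, 38.9 and 29.8 in WT, 51.6, 57.8 and 48.9 in GLUT3KO and 17.8, 20.3 and 22.1 in ACLYKO. These 3 groups did not overlap. Neither difference was called in the full fit (GLUT3KO 0.452, ACLYKO 0.393), and both were without ACLYKO replicate 1 (0.00873 and 0.00309). The SE of these differences was 0.53 with that library and 0.16 without it.

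Bid encodes BID, a BH3-only protein that links death receptors to mitochondria once caspase-8 has cut it. Without acetate Bid had 18, 22.2 and 25.8 TPM in WT, 5.54, 6.28 and 6.57 in GLUT3KO and 9.03, 13.6 and 14.4 in ACLYKO. The 3 genotypes were apart from each other, with GLUT3KO lowest. Bid fell 3.59-fold in GLUT3KO (log2 difference -1.68 ± 0.18, adjusted p 6.17e-06) and 1.78-fold in ACLYKO (-0.79 ± 0.18, 0.00708, and -0.60 ± 0.16, 0.0143, without ACLYKO replicate 1). It is the gene of the 10 that was called in both losses without and with acetate. The 2 losses share their WT libraries. With acetate the falls were -1.56 ± 0.18 (1.39e-05) in GLUT3KO and -0.59 ± 0.18 (0.0455) in ACLYKO, and the latter was lost on leaving out any 1 of the 6 libraries compared, at up to 0.165.

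BAD is held inactive by growth factor signalling. Bad had 10.8, 13.6 and 13.1 TPM in WT, 9.56, 15.3 and 14.5 in GLUT3KO and 4.63, 25.6 and 21.2 in ACLYKO. The lowest and the highest of all 18 values were in ACLYKO. No change was called over all libraries (0.04 ± 0.40 in GLUT3KO, 0.948, and 0.15 ± 0.40 in ACLYKO, 0.822), and without ACLYKO replicate 1 Bad was higher in ACLYKO (0.86 ± 0.17, 0.00259). The gene on its opposite strand, Gpr137, moved alike in that library (0.206 TPM against up to 6.75 in the other ACLYKO libraries), and the strand setting of the counting is not stated in what was read here.

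Of the survival genes, Bcl2 and Mcl1 were higher in GLUT3KO and Bcl2l1 was not called. Bcl2 had 55.7, 43.0 and 34.7 TPM in WT and 68.9, 70.9 and 86.9 in GLUT3KO. All GLUT3KO libraries were higher (log2 difference 0.77 ± 0.16, adjusted p 0.00176). With acetate Bcl2 had 62.5, 59.1 and 50.4 in WT and 74.4, 67.6 and 67.4 in GLUT3KO, still apart but not called (0.28 ± 0.16, 0.207). In ACLYKO it had 51.6, 58.7 and 51.0, overlapping WT (0.29 ± 0.16, 0.228). The difference between GLUT3KO and ACLYKO, 0.48 ± 0.16, was called (0.0268) and was lost with median-ratio scaling (0.144), without GLUT3KO replicate 3 (0.122) and without ACLYKO replicate 3 (0.0709).

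MCL-1 is the survival protein with the fastest turnover, and T cells depend on it at all stages. Mcl1 had 138, 105 and 101 TPM in WT and 201, 155 and 190 in GLUT3KO, all of these above WT. The log2 difference was 0.66 ± 0.17 (adjusted p 0.0066), and with median-ratio scaling it was no longer called (0.0931). With acetate Mcl1 had 95.6, 94.5 and 91.3 in WT and 139, 133 and 124 in GLUT3KO, again apart (0.49 ± 0.17, 0.0391). That call was lost with median-ratio scaling (0.184) and on leaving out any 1 of the 6 libraries compared, at up to 0.116. In ACLYKO the values, 123, 98.9 and 86.0, overlapped those of WT (-0.16 ± 0.17, 0.529).

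Bcl2l1 encodes BCL-XL, which activated T cells induce. It had 87.2, 70.8 and 69.4 TPM in WT, 72.9, 44.8 and 56.5 in GLUT3KO and 59.8, 105 and 91.9 in ACLYKO. The groups overlapped, and neither difference from WT was called (-0.40 ± 0.20 in GLUT3KO, 0.137, and 0.14 ± 0.20 in ACLYKO, 0.650). Relative to the median of the genes, that is with median-ratio scaling, GLUT3KO was lower (0.0101), and it was also lower without ACLYKO replicate 1 (0.0348). With acetate the values were 79.3, 85.3 and 74.4 in WT, 70.0, 65.0 and 67.4 in GLUT3KO and 112, 102 and 105 in ACLYKO. These 3 groups did not overlap, and Bcl2l1 was the survival gene whose order put ACLYKO above WT and WT above GLUT3KO, although neither difference was called (0.417 for GLUT3KO and 0.208 for ACLYKO).

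The 2 effector genes differed, since without acetate Bak1 changed in both knockouts and Bax was called in neither. BAX waits in the cytosol and BAK on the mitochondrial membrane. Bak1 had 123, 89.8 and 82.8 TPM in WT, 203, 132 and 181 in GLUT3KO and 26.6, 68.6 and 57.0 in ACLYKO. The 3 groups did not overlap, with GLUT3KO highest and ACLYKO lowest. Bak1 rose in GLUT3KO (log2 difference 0.79 ± 0.28, adjusted p 0.0393) and fell in ACLYKO (-1.03 ± 0.28, 0.0177, and -0.63 ± 0.20, 0.0315, without ACLYKO replicate 1). The rise was not called with median-ratio scaling (0.0558), and it was lost without replicate 2 (0.117) or 3 (0.139) of WT or replicate 1 (0.142) or 3 (0.110) of GLUT3KO. The fall was lost without WT replicate 1 (0.0625). With acetate Bak1 had 69.2, 70.6 and 77.0 in WT, 144, 147 and 133 in GLUT3KO and 80.3, 58.7 and 62.0 in ACLYKO. GLUT3KO was 1.96-fold above WT (0.96 ± 0.28, 0.0162; 0.0513 without replicate 1 of WT with acetate and 0.0520 without replicate 2 of GLUT3KO with acetate), and ACLYKO overlapped WT (-0.12 ± 0.28, 0.830).

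Bax had 122, 209 and 222 TPM in WT, 103, 163 and 116 in GLUT3KO and 86.0, 239 and 238 in ACLYKO. Replicate 1 was the lowest library of each of these groups. No difference was called (-0.51 ± 0.33 in GLUT3KO, adjusted p 0.253, and -0.07 ± 0.33 in ACLYKO, 0.903). With acetate the spread within groups was smaller, with 175, 190 and 173 in WT, 122, 126 and 120 in GLUT3KO and 120, 150 and 132 in ACLYKO. All 6 knockout libraries were below all 3 of WT, at -0.54 ± 0.33 (0.238) and -0.42 ± 0.33 (0.455). Without ACLYKO replicate 1, Bax was called lower in GLUT3KO without acetate (0.0483) and with it (0.0395).

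**Figure D2:**
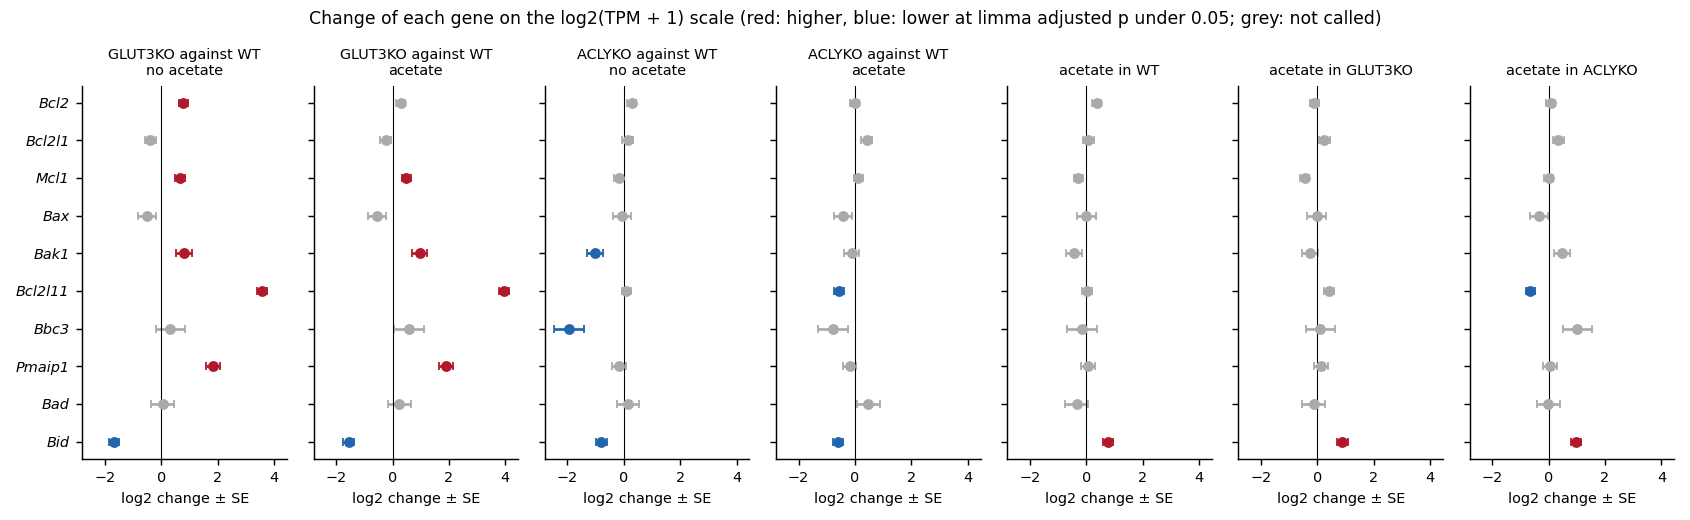
Log2 difference on the log2(TPM + 1) scale with its SE (horizontal axes) for each of the 10 genes (vertical axis) in 7 comparisons of 3 against 3 libraries, red where called higher, blue where called lower and grey where not called. Bcl2l11 and Pmaip1 lie far to the right in both GLUT3KO panels, and Bid is lower in all 4 panels of gene loss and higher in all 3 of acetate.

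In WT acetate changed 1 of the 10 genes, in GLUT3KO 1 and in ACLYKO 2, where 6.50%, 12.7% and 17.3% of all genes were called. These counts are near those shares and say nothing particular about the 10. Bid was the one called in all 3 genotypes. It had 34.6, 37.8 and 40.8 TPM with acetate in WT, 9.68, 12.9 and 14.2 in GLUT3KO and 22.5, 25.2 and 26.3 in ACLYKO. Every library with acetate was above every library without it of the same genotype. The log2 differences were 0.76 ± 0.18 (adjusted p 0.0221), 0.88 ± 0.18 (0.00584) and 0.97 ± 0.18 (0.00187), or folds of 1.72, 2.00 and 2.00. In a fit of the ACLYKO groups alone the third was not called (0.0980). The call in WT was lost without replicate 1 or 2 of WT or replicate 2 or 3 of WT with acetate (up to 0.107). With acetate, Bid in ACLYKO (24.7 ± 1.96 TPM) overlapped untreated WT (22.0 ± 3.90), and GLUT3KO with acetate (12.3 ± 2.34) stayed below it.

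Apart from Bcl2l11 in ACLYKO, the other 9 genes were not called for acetate in any genotype. Mcl1 was lower with acetate in all 3 libraries of WT and of GLUT3KO than in any library without it, though not called (-0.28 ± 0.17, adjusted p 0.417, and -0.45 ± 0.17, 0.0890). In GLUT3KO that difference was called without ACLYKO replicate 1 (0.0285). In ACLYKO without its replicate 1, acetate also lowered Bax (-0.83 ± 0.22, 0.0168) and Bad (-0.72 ± 0.17, 0.00892) and raised Pmaip1 (0.44 ± 0.12, 0.0186), none of which was called with it.

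The acetate change itself was compared between genotypes. Between GLUT3KO and WT 0 of the 10 genes differed by limma (0.773% of all genes were called), with Bcl2 alone under an unadjusted p of 0.05 (0.0493). Between ACLYKO and WT the count was 0 as well (1.34% of all genes), with Bcl2l11 (unadjusted p 0.0165) and Bak1 (0.0363) under that limit. The intervals are wide: for Bcl2l11 the difference was 0.38 ± 0.24 for GLUT3KO and -0.66 ± 0.24 for ACLYKO. In a comparison added after these values were seen, the acetate change of Bcl2l11 was higher in GLUT3KO than in ACLYKO by 1.04 ± 0.24 (adjusted p 0.0222, and 0.0132 without ACLYKO replicate 1), the 1 of the 10 genes called there, where 4.87% of all genes were. It was lost in a fit of these 4 groups alone (0.104) and without GLUT3KO replicate 3 (0.0686), ACLYKO replicate 3 (0.0525) or replicate 1 of ACLYKO with acetate (0.0584).

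Set against each other without acetate, the 2 knockouts differed in 8 of the 10 genes, where 40.4% of all genes were called. In GLUT3KO 6 were higher (Bcl2l11, Pmaip1, Bak1, Mcl1, Bbc3 and Bcl2) and 2 lower (Bid and Bcl2l1). The differences for Bbc3 (2.27 ± 0.53, adjusted p 0.00306, and 1.31 ± 0.18, 3.81e-05, without ACLYKO replicate 1) and Bak1 (1.82 ± 0.28, 0.000108, and 1.42 ± 0.20, 4.45e-05) stood beside that for Pmaip1 (2.01 ± 0.24, 9.69e-06, and 2.40 ± 0.12, 3.91e-09). The call for Bcl2l1 (-0.54 ± 0.20, 0.0405) was lost without replicate 2 or 3 of either group (up to 0.172), and the libraries overlapped. A fit of these 2 groups alone called 3 of the 10 genes.

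The make-up of the family differed as well. Mcl1 accounted for 48.9% ± 0.692 (SD, n = 3) of the summed TPM of the 3 survival genes in WT, 57.6% ± 0.849 in GLUT3KO and 42.6% ± 8.60 in ACLYKO. All GLUT3KO libraries were above WT, and those of ACLYKO had 52.5%, 37.7% and 37.6%. With acetate the Mcl1 share was 40.7% ± 1.40 in WT, 49.0% ± 1.11 in GLUT3KO and 38.5% ± 3.46 in ACLYKO, so that in WT and GLUT3KO every library with acetate was below every one without. The Bcl2l1 share was lowest in GLUT3KO, at 18.2% ± 2.63 against 32.4% ± 1.39 in WT.

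The 5 BH3-only genes summed to 105, 133 and 127 TPM in WT, 237, 281 and 265 in GLUT3KO and 88.2, 93.0 and 85.4 in ACLYKO. GLUT3KO had the most and ACLYKO the least, without overlap, and the same order held with acetate (133 ± 5.50 in WT, 294 ± 23.4 in GLUT3KO and 102 ± 5.12 in ACLYKO). The mean sum of the 3 survival genes rose less, from 235 ± 40.4 TPM in WT (up to 281) to 316 ± 39.0 in GLUT3KO (from 271), and these groups overlapped. That sum holds Bcl2, Bcl2l1 and Mcl1 alone. It leaves out other survival genes, among them Bcl2a1b (mean 203 TPM in WT) and Bcl2a1a (61.7 in WT and 43.5 in GLUT3KO). Transcripts of the 5 BH3-only genes per transcript of these 3 survival genes were 0.533 ± 0.139 in WT, 0.841 ± 0.176 in GLUT3KO and 0.368 ± 0.0115 in ACLYKO. With acetate they were 0.576 ± 0.0205, 1.09 ± 0.110 and 0.386 ± 0.0321. This ratio is therefore not that of the whole family. Without acetate WT (0.373 to 0.619) and ACLYKO (0.355 to 0.376) overlapped in this ratio, and GLUT3KO was above both. With acetate the 3 groups were apart. Pmaip1 made up 65.6% ± 1.45 of the BH3-only sum in GLUT3KO and 38.9% ± 1.71 in WT, and Bcl2l11 made up 8.33% ± 1.76 in GLUT3KO and 0.728% ± 0.0526 in WT. The ratio of Bak1 to Bax was 0.603 ± 0.350 in WT, with 1.01 in replicate 1 and 0.430 and 0.374 in the others, 1.45 ± 0.591 in GLUT3KO (0.808 to 1.97, overlapping WT) and 0.279 ± 0.0358 in ACLYKO. With acetate it was 0.404 ± 0.0377 in WT, 1.15 ± 0.0372 in GLUT3KO and 0.511 ± 0.144 in ACLYKO, so that ACLYKO was no longer below WT. These sums and ratios are descriptions of transcript levels, and proteins were not measured.

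**Figure D3:**
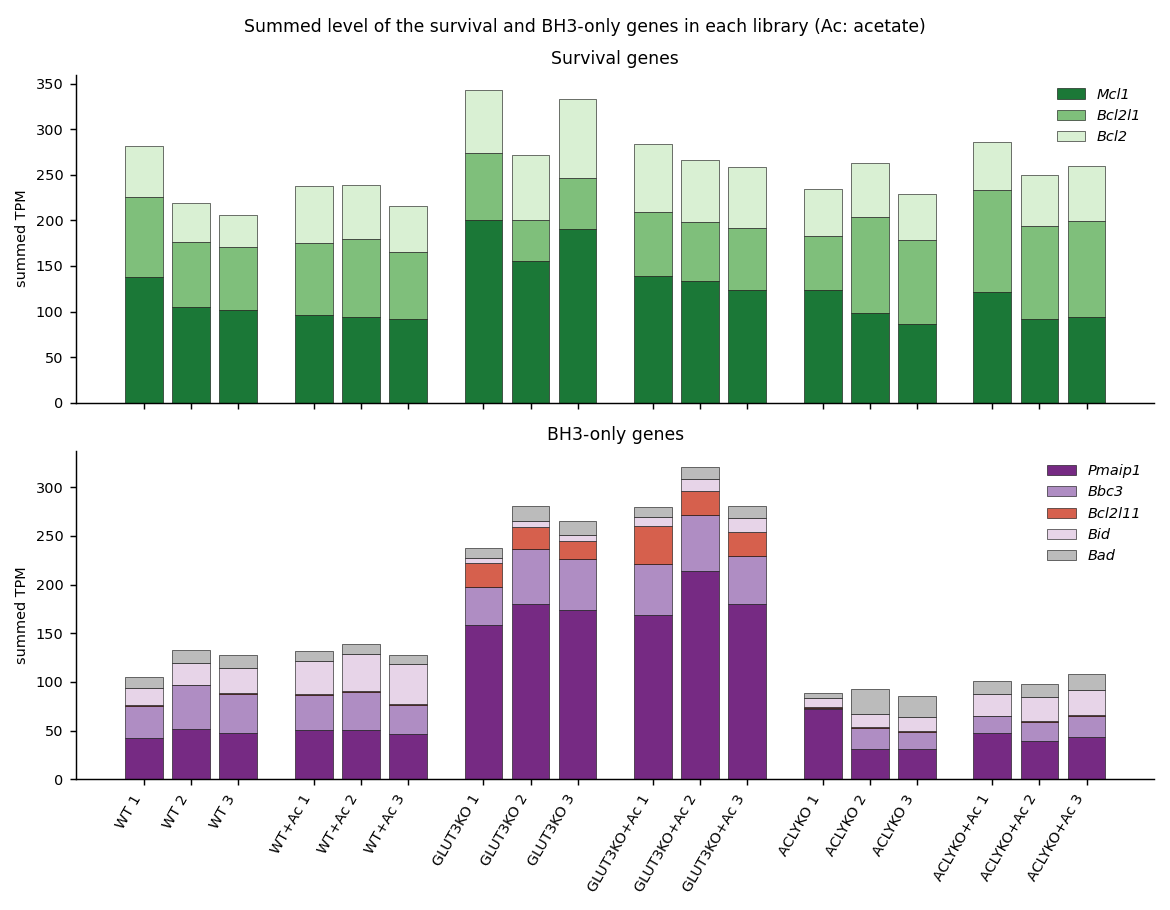
Stacked TPM (vertical axes) of the 3 survival genes (upper panel) and the 5 BH3-only genes (lower panel) in each of the 18 libraries (horizontal axis). The BH3-only sum lies between 237 and 321 TPM in the 6 GLUT3KO libraries and between 85.4 and 139 in the other 12, and Pmaip1 takes 81.6% of it in ACLYKO replicate 1.

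The other genes of the pathway were counted by lists, for the losses without acetate unless acetate is named. Of all genes tested 24.9% were higher and 8.47% lower under GLUT3 loss, and 12.7% were higher and 6.38% lower under ACLY loss. With acetate 30.4% of all genes were called under GLUT3 loss (68.8% of those upward) and 13.5% under ACLY loss (85.4% upward). For acetate itself 6.50%, 12.7% and 17.3% were called in WT, GLUT3KO and ACLYKO (65.0%, 38.1% and 67.6% upward). A count near these shares says nothing particular about its list. Of the 4 tested BH3-only or related genes outside the 10, GLUT3 loss raised 2 and lowered 0. Bmf, which encodes another BH3-only protein, had 1.84, 1.41 and 1.76 TPM in WT and 6.29, 10.9 and 12.3 in GLUT3KO (log2 difference 1.98 ± 0.27, adjusted p 5.60e-05). Bnip3l, a mitophagy receptor, rose from 53.2 to 71.5 TPM (0.41 ± 0.13, 0.0228) and was not called with median-ratio scaling (0.317) or without WT replicate 1 (0.0761) or GLUT3KO replicate 2 (0.0956) or 3 (0.0528). ACLY loss changed 0 of these 4 genes without acetate and lowered 2 with it, Bnip3 (35.1 to 11.8 TPM, -1.54 ± 0.34, 0.00642) and Bnip3l (62.0 to 46.5 TPM, -0.41 ± 0.13, 0.0463, lost on leaving out any 1 of the 6 libraries compared, at up to 0.171). Acetate raised 2 of the 4 in each genotype, Bmf and Bik each time. Bmf went from a mean of 1.67 to 4.19 TPM in WT, from 9.84 to 18.7 in GLUT3KO and from 1.11 to 3.90 in ACLYKO (adjusted p 0.0491, 0.0439 and 0.00440). With a block for replicate number, Bmf was no longer called in WT (0.0795) or GLUT3KO (0.0585). Bik went from 1.18 to 3.79, from 0.663 to 2.94 and from 0.700 to 2.2 (0.0114, 0.00383 and 0.0136), and was not called in WT with a pseudocount of 0.1 (0.135) or without WT replicate 1 (0.0647).

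Among other survival genes, GLUT3 loss lowered 1 of 4 tested, Bcl2a1b (203 to 130 TPM, -0.66 ± 0.23, adjusted p 0.0388). Bcl2a1a, Bcl2a1b and Bcl2a1d are near-identical copies whose reads can be split between them, so their single values are uncertain, and the call was lost without replicate 1 (0.156) or 3 (0.115) of GLUT3KO or replicate 2 (0.139) or 3 (0.115) of WT. ACLY loss changed 0 of the 4. Acetate raised 2 of the 4 in GLUT3KO, Bcl2a1a (mean 43.5 to 70.6 TPM) and Bcl2a1d, where 12.7% of all genes were called. In WT and in ACLYKO acetate changed 0 of the 4.

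Downstream of the mitochondria, GLUT3 loss raised 4 of 10 apoptosome and caspase genes and lowered 0, where 24.9% of all genes were higher. Apaf1, the scaffold on which cytochrome c assembles the apoptosome, rose from 42.7 ± 4.31 to 113 ± 16.8 TPM (log2 difference 1.38 ± 0.15, adjusted p 5.41e-06). The caspase gene Casp6 rose with it (16.5 to 47.8 TPM, 1.48 ± 0.13, 5.59e-07). ACLY loss lowered Apaf1 (to 21.3 TPM, -0.98 ± 0.15, 3.42e-04). Apaf1 and Bak1 thus had the same order over the untreated groups, highest in GLUT3KO and lowest in ACLYKO. Inhibitors of apoptosis rose too: GLUT3 loss raised 4 of 5, among them Xiap, which blocks caspases (14.7 to 22.5 TPM, 0.58 ± 0.11, 6.56e-04, and 0.109 with quantile normalization), and Birc3 (52.1 to 96.4 TPM, 0.91 ± 0.20, 0.00304). ACLY loss raised 2 of 5, Birc3 (to 99.3 TPM, 0.93 ± 0.20, 0.00499) and Birc5 (5.91 to 27.9 TPM, 2.00 ± 0.37, 0.00160).

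In the death receptor list GLUT3 loss also raised 4 of 10 genes and lowered 0, against the same 24.9%. Fas, the receptor that acts upstream of BID, rose from 10.4 ± 2.25 to 32.1 ± 4.2 TPM (1.55 ± 0.17, adjusted p 6.17e-06), and the ligand genes Tnfsf10 (0.537 to 5.86 TPM, 2.10 ± 0.25, 1.49e-05) and Fasl (1.47 to 5.13 TPM, 1.30 ± 0.19, 1.10e-04) rose as well. ACLY loss raised Fasl (to 3.51 TPM, 0.83 ± 0.19, 0.00740) and lowered 2, Tnfrsf10b (56.6 to 28.8 TPM, -0.99 ± 0.16, 5.70e-04) and Tnfrsf1a (36.1 to 14.9 TPM, -1.42 ± 0.33, 0.00717).

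Known regulators of the BH3-only genes, and genes that share a regulator with them, were mixed. The p53 list holds Trp53, which encodes p53, and mostly targets of p53, as Bbc3 and Pmaip1 are. Trp53 itself was not called in either loss, without or with acetate. Of the 12 genes of the list, GLUT3 loss raised 6 and lowered 0, where 24.9% of all genes were higher. With acetate it raised 4 and lowered 1, where 30.4% of all genes were called, 68.8% of those upward. Without acetate the smallest adjusted p were those of Perp, a membrane protein gene (10.7 to 94.9 TPM, 3.09 ± 0.22, adjusted p 1.15e-07), Sesn1 (0.92 ± 0.15, 2.06e-04) and Eda2r (0.66 ± 0.12, 8.11e-04). ACLY loss raised Perp (to 21.3 TPM, 1.00 ± 0.22, 0.00573) and lowered Cdkn1a (475 to 216 TPM, -1.25 ± 0.32, 0.0141) and Trp53inp1 (266 to 170 TPM, -0.64 ± 0.21, 0.0427). Cdkn1a was not called without WT replicate 2 (0.0690) or 3 (0.0559), nor Trp53inp1 in 15 of 29 alternatives. Of 6 FOXO and stress factor genes, GLUT3 loss raised 2 and lowered 1. Foxo3 had 17.9, 18.6 and 19.7 TPM in WT and 38.0, 33.1 and 40.0 in GLUT3KO (0.94 ± 0.20, 0.00194), and Foxo1 had 46.2, 39.2 and 38.1 in WT and 26.3, 25.5 and 25.1 in GLUT3KO (-0.66 ± 0.19, 0.0152). These 2 FOXO genes moved in opposite directions, without overlap. ACLY loss changed 0 of the 6.

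The genes of IL-2 and IL-7 signalling, which sustain Bcl2 and Mcl1, split evenly under GLUT3 loss, with 3 of 11 higher and 3 lower. Il7r, the IL-7 receptor, rose from 9.45 ± 1.47 to 121 ± 10.9 TPM (3.55 ± 0.14, adjusted p 2.91e-10), while Il2 fell from 5412 ± 1233 to 434 ± 96.4 (-3.63 ± 0.32, 7.52e-07) and Stat5a from 73.5 to 25.2 (-1.51 ± 0.12, 1.98e-07). In ACLYKO Il2 was higher than in WT (13290 ± 5778 TPM, 1.24 ± 0.32, 0.0133). Of 5 genes that control turnover of MCL-1 or other members, GLUT3 loss raised 3 and lowered 0, among them Usp9x, which stabilizes MCL-1 (44.9 to 80.6 TPM, 0.86 ± 0.23, 0.00902), and Fbxw7, which marks it for breakdown (22.0 to 55.0 TPM, 1.26 ± 0.35, 0.0115). With median-ratio scaling Usp9x was not called (0.0787), and Fbxw7 was not without WT replicate 2 (0.0536) or GLUT3KO replicate 1 (0.0627). ACLY loss changed 0 of those 5. The genes outside the 10 named so far for ACLY loss without acetate were not called in a fit of untreated WT and ACLYKO alone, with adjusted p from 0.0583 (Birc5) to 0.263 (Cdkn1a).

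Read against all genes, whose median log2 difference was 0.17 under GLUT3 loss, the list medians were 0.77 for the inhibitors of apoptosis, 0.72 for death receptors, 0.86 for turnover, 0.40 for p53, 0.38 for FOXO and stress factors and 0.23 for the apoptosome and caspases, and they were 0.00 for the other BH3-only genes, -0.48 for the other survival genes and -0.12 for IL-2 and IL-7 signalling. Under ACLY loss the median of all genes was 0.03, and those of the same lists were 0.32, 0.07, 0.45, -0.27, -0.28, 0.12, -0.41, -0.27 and -0.17 in that order. Of 4 further BCL-2-related genes 0 were called in either loss without acetate (list medians -0.15 and 0.08). With acetate GLUT3 loss lowered 2 of them, Bcl2l14 (1.61 to 0.447 TPM, -0.85 ± 0.17, adjusted p 0.00133) and Bcl2l15, and ACLY loss raised Bcl2l14 (to 3.46 TPM, 0.74 ± 0.17, 0.00845). The latter was not called with a pseudocount of 0.1 (0.09999), quantile normalization (0.0551) or voom on the recovered reads (0.0901). Acetate raised 2 of these 4 genes, Bcl2l14 and Bcl2l15, in WT and in ACLYKO, and 0 in GLUT3KO. Of 3 genes of the mitochondrial channel VDAC, 0 were called under GLUT3 loss without acetate (-0.23) and 1 was higher under ACLY loss, Vdac3 (126 to 163 TPM, 0.37 ± 0.11, adjusted p 0.0310; list median -0.33). With acetate GLUT3 loss lowered Vdac1 (299 to 213 TPM, -0.49 ± 0.12, 0.00676).

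**Figure D4:**
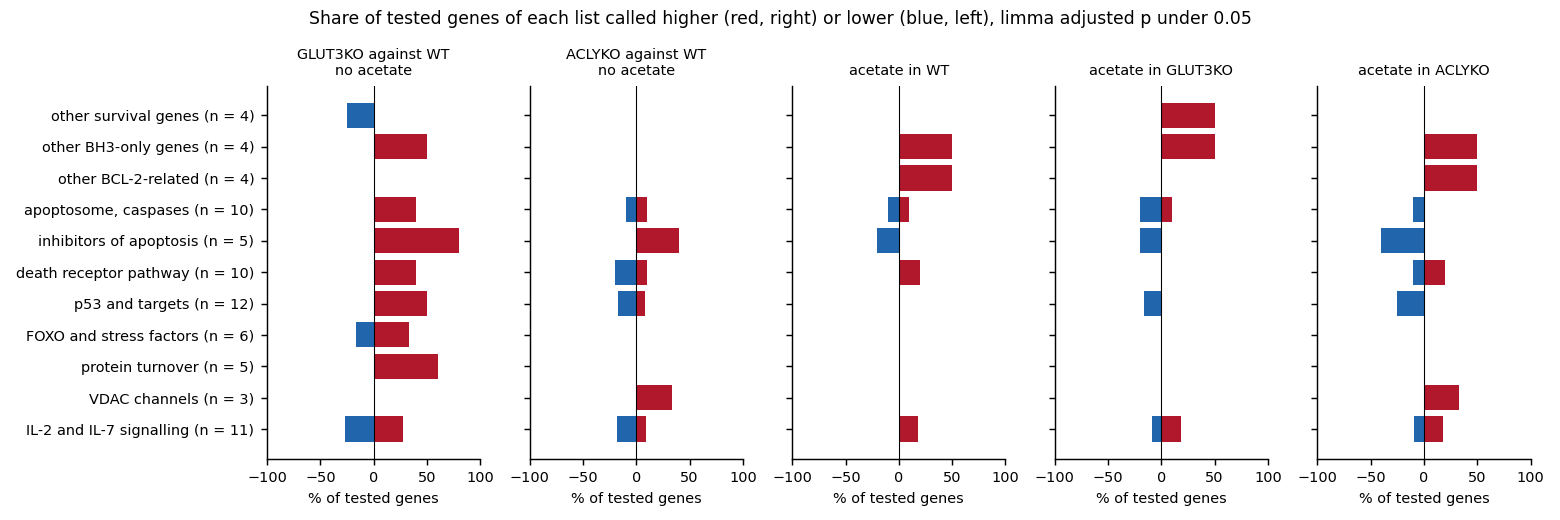
Percent of the tested genes of 11 lists (vertical axis, with the number tested) called higher (red, to the right) or lower (blue, to the left) in 5 comparisons (horizontal axes). Under GLUT3 loss without acetate the inhibitors of apoptosis (4 of 5), the apoptosome and caspases (4 of 10), the death receptor list (4 of 10), the p53 list (6 of 12), the other BH3-only genes (2 of 4) and the turnover list (3 of 5) have called genes on the right side alone, where 74.6% of the calls over all genes were to the right.

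Bcl2l11 had the widest range of group means on the log2(TPM + 1) scale of the 10 genes. Among 8459 protein-coding genes with a mean of at least 5 TPM, those whose level followed it most closely over the 18 libraries were Gng12 (Pearson r 0.993), Zdhhc21 (0.989), Nr6a1 (0.989), Arl5b (0.989) and Csf1 (0.987). Each was high in GLUT3KO and low elsewhere: Csf1, a myeloid growth factor gene, had 0.663 TPM in WT and 25.7 in GLUT3KO, and Nr6a1, a nuclear receptor gene, 2.71 and 28.4. These libraries fall into 2 clusters by genotype. Within the 6 GLUT3KO libraries r was 0.881 for Gng12, 0.970 for Zdhhc21 and 0.904 for Arl5b, but -0.02 for Nr6a1 and 0.561 for Csf1, and within the other 12 libraries it was 0.758, 0.711, 0.295, 0.569 and 0.412 in that order.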

How the data were processed

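Messenger RNA was sequenced from 18 libraries (stranded kit, single reads of 75 nt, per the labels). Levels are TPM as deposited, which the authors made and which is listed as unit other because of its decimal commas, with the combined exon length (bases, also an other unit) given per gene in the deposited table. The submitters' processing notes name, without their roles, STAR 2.7.2b, featureCounts 1.6.4, cutadapt, bcl2fastq 2.20.0.422, DESeq2 and build GRCm38.p6. TPM times exon length gave whole reads in 100% of values under 500 reads (tolerance 0.01 reads).

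Genes with at least 1 TPM in at least 3 libraries were tested (14229). With limma 3.58.1 (R 4.3.3), 1 mean per group was estimated on log2(TPM + 1) from the 18 libraries together (eBayes with trend and robust), and p was adjusted by Benjamini and Hochberg over all genes within each of 11 comparisons, with a threshold of 0.05. The script was tested on simulated data. Alternatives numbered 29. The members and the gene lists were chosen with earlier results of these data known. Named genes were the 10 members and, from each other list, up to 3 called genes with the smallest adjusted p, with the targeted genes, Il2 and the 5 genes most like Bcl2l11.

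Residuals of same-numbered libraries with and without acetate correlated in all 9 pairs (0.120 to 0.548), as did those of untreated WT and ACLYKO (0.285 to 0.577), so the numbers were taken to pair these libraries, and a fit with a block for replicate number was made. The labels do not say what a number shares. No table column was left unmapped.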

Additional observations from a re-analysis of the deposited data

Results flagged for a closer look

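The change with acetate differed between genotypes for 7 of the genes followed, by a test of the difference itself in limma. Between ACLYKO and WT, where 1.34% of all genes were called, it differed for Casp6 (-0.98 ± 0.18, adjusted p 0.0129), Stat5a (-0.84 ± 0.16, 0.0200) and Il7r (0.86 ± 0.20, 0.0468). With a block for replicate number, 0 of those 3 were called (0.0850, 0.0775 and 0.125). In the comparison of GLUT3KO with ACLYKO, which was added after the values were seen, it differed for Bcl2l11 (1.04 ± 0.24, 0.0222), Il2 (2.45 ± 0.45, 0.00535), Casp6 (0.79 ± 0.18, 0.0182), Bcl2l14 (-1.07 ± 0.24, 0.0178) and Fasl (-1.03 ± 0.27, 0.0428). Of all genes 4.87% were called there. With the block, Bcl2l14 (0.0525) and Casp6 (0.0822) were not called. Casp6 had 16.8, 16.0 and 16.6 TPM in WT and 27.3, 25.8 and 24.5 in WT with acetate, and in ACLYKO 23.2, 17.3 and 18.6 without and 14.2, 16.2 and 14.7 with it: acetate went with higher values in every WT library and with lower ones in every ACLYKO library. No Dixon test for a single outlying value was made, since each group has 3 libraries.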

How the results depend on the processing

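Counts of called genes among the 10 moved by more than 1.5 times, or from or to 0, under these alternatives. Fitting only the groups compared gave 0 for ACLY loss without acetate, 10 for GLUT3 loss with acetate, 6 for ACLY loss with acetate, 0 for acetate in ACLYKO, 3 for GLUT3KO against ACLYKO and 0 for the acetate change in GLUT3KO against ACLYKO. Library weights estimated by limma (arrayWeights) gave 7 for ACLY loss without and 8 with acetate, 10 for GLUT3 loss with acetate, 4, 6 and 5 for acetate in WT, GLUT3KO and ACLYKO, and 3, 2 and 4 for the acetate change in GLUT3KO against WT, ACLYKO against WT and GLUT3KO against ACLYKO. Without the 8 libraries above 0 on the within-group axis (63.6% of the variance within groups) the counts were 7 for ACLY loss without acetate and 5 for acetate in ACLYKO. That left only replicate 2 of GLUT3KO without acetate and of WT with acetate, so counts for comparisons with those groups are not given. With the axis score as a covariate, chosen after seeing the data, the counts were 4 for ACLY loss with acetate, 2, 2 and 4 for acetate in the 3 genotypes, 1 for its change in ACLYKO against WT and 2 in GLUT3KO against ACLYKO. The axis was drawn from the same differences within groups that set the SE, so a lower SE is built into both of these alternatives. ACLY loss with acetate had 1 with a pseudocount of 0.1 and 0 without a filter, and the acetate change in ACLYKO against WT had 1 with that pseudocount and 1 with voom on the recovered reads.

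Leaving out 1 library in turn gave 5 to 8 genes for GLUT3 loss without and 3 to 7 with acetate, 2 to 5 for ACLY loss without and 0 to 4 with acetate, 0 to 1, 1 to 2 and 1 to 5 for acetate in WT, GLUT3KO and ACLYKO, 6 to 10 for GLUT3KO against ACLYKO and 0 to 1 for their acetate change. Differences of the acetate change from WT stayed at 0 in each of these 18. The highest counts came without ACLYKO replicate 1. A block for replicate number changed no call among the 10 genes (6 and 3 called for the losses of GLUT3 and ACLY without acetate, 1, 1 and 2 for acetate). In no alternative did a called value change its sign. Over all genes, ACLY loss without acetate had 2715 calls and 342 in the fit of its groups alone, and acetate in ACLYKO 2458 and 424. Depth gave 24 to 52 reads of Bcl2l11 in ACLYKO with acetate, the fewest of any group. The causes were not tested.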
